A study of Saccharomyces cerevisiae with 4 samples.

Results

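Of 6140 yeast reading frames with at least 100 reads in the Mip6 libraries, 609 (9.92%) carried most of their reads on the strand opposite to the frame at both temperatures. These frames were chosen by that readout. A frame's own strand was read from the last letter of its systematic name, W for the plus strand and C for the minus strand. A frame was kept when its other-strand share, the reads on the opposite strand as a percentage of all its reads, was at least 50% at 30 °C and at 39 °C. Reads on that strand are called antisense here, and reads on the frame's own strand sense. The count files hold 7126 features, of which 6685 are named as reading frames. The chosen frames were divided evenly between the strands, with 306 of 3086 W frames and 303 of 3054 C frames.

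RNA was recovered by PAR-CLIP, in which 4-thiouracil taken up by living cells is crosslinked by ultraviolet light to the protein that touches the RNA. The Saccharomyces cerevisiae strain, Mip6-HTB, carries a tagged form of Mip6, an RNA-binding protein that the study places beside the mRNA export receptor Mex67 and the stress mRNAs of Msn2 and Msn4. One culture condition stayed at 30 °C with 4-thiouracil for 45 min, and the other had 25 min at 30 °C and then 20 min at 39 °C with the nucleobase present throughout. Both were irradiated at 365 nm for 15 min. The same tagged strain was used at both temperatures, and neither an untagged strain nor input RNA was among the samples analysed here. A read level therefore mixes how much of an RNA the cells held with how much of it was crosslinked, and these cannot be told apart.

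The 4 samples are the minus-strand and plus-strand reads of 1 library per temperature. Reads in features numbered 11657228 at 30 °C and 6950540 at 39 °C, and a count of 0 allows up to 0.257 and 0.432 CPM, a count brought to a common depth by its library's total. With 1 library per temperature there is no replicate check and no test. Every interval below is a 95% interval for counting error alone, and PCR copies are not independent molecules. Shares and counts taken from the choice of frames are descriptions.

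Antisense transcription is widespread in budding yeast. Antisense RNAs often start in the nucleosome-poor region behind a gene, at a promoter that also serves the next gene, and many are removed quickly by the nuclear exosome or by the cytoplasmic exonuclease Xrn1. At several genes for meiosis, phosphate uptake and galactose use, an antisense RNA is known to oppose expression of the sense mRNA. The yeast gene catalogue also holds many short frames that overlap a gene on the opposite strand and are not thought to code for protein.

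RefSeq holds an entry for 359 of the 609 frames, 356 as protein-coding genes and 3 as pseudogenes, and has none for the remaining 250. These made up 6.21% of the 5782 measured frames with a RefSeq entry and 69.8% of the 358 without one. Frames without an entry were short, with a median length of 363 bases, against 852 bases for those with an entry and 1227 bases for the other measured frames. Positions, neighbours and roles are given only for the frames with an entry.

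The chosen frames held 285798 other-strand and 61142 own-strand reads at 30 °C, and 202626 and 43468 at 39 °C. They took 2.98% of the reads in features at 30 °C and 3.54% at 39 °C, and 29.0% and 26.2% of the other-strand reads of all reading frames. At 30 °C the median of their other-strand shares was 87.6%, and at 39 °C it was 86.3%, where the other measured frames had medians of 5.45% and 7.32%. Frames without a RefSeq entry had the more one-sided reads, with medians of 93.6% and 91.2% against 78.4% and 80.3% for frames with one. At least 90% of reads lay on the other strand at both temperatures for 204 frames, 70 of them in RefSeq.

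**Figure D1:**
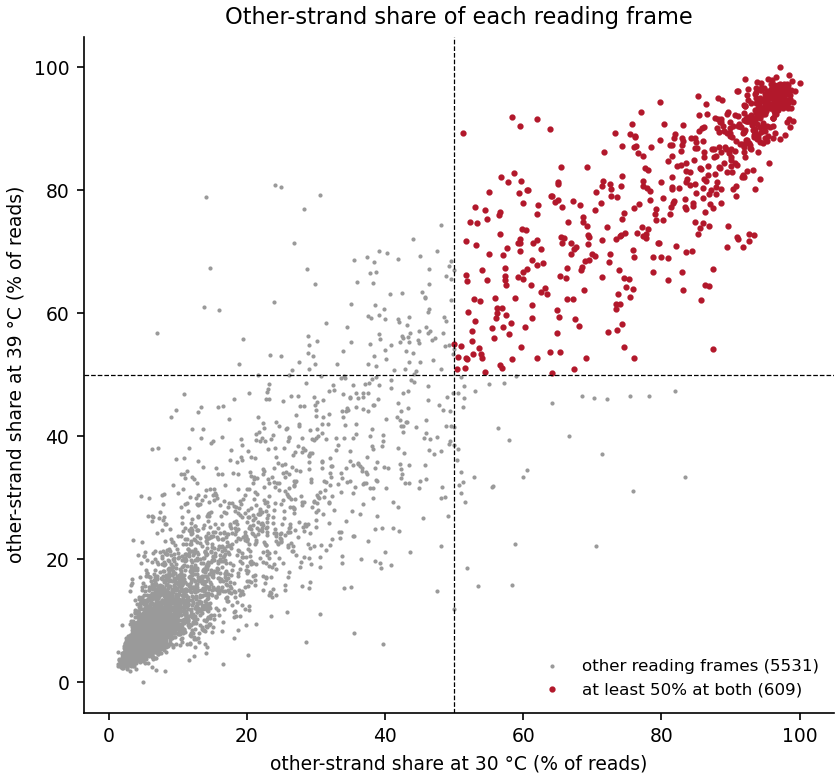
Other-strand share (percent of a frame's reads) at 30 °C on the x axis and at 39 °C on the y axis, 1 point for each of 6140 reading frames, with the 609 chosen frames in red and dashed lines at 50%. Most frames sit in the lower left corner, with medians of 6.01% and 8.11% over all of them, and the chosen frames gather at the upper right.

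The strand assignment was read against genes whose sense mRNA is abundant. All 18 genes of glycolysis had low other-strand shares, with medians of 3.15% at 30 °C and 3.97% at 39 °C and none above 6.98%. None of them was among the chosen frames. Whether some reads were assigned to the wrong strand was not tested. In very one-sided frames, such as MER1 with an antisense share of 96.8% at 30 °C, sense reads are a similarly small part. Their sense ratios are uncertain on that account.

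Per kilobase, other-strand reads over the chosen frames were fewer than the sense reads of a typical gene but well above the usual antisense level. Their median other-strand level was 38.4 CPM per kilobase at 30 °C and 44.6 at 39 °C. Over all measured frames, the median own-strand level was 74.7 and 73.9 CPM per kilobase, and the median other-strand level was 6.73 and 9.10. The own strand of the chosen frames was sparsely read, with medians of 5.38 and 7.46 CPM per kilobase. These levels follow from how the frames were chosen.

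Frames near the 50% line had nearly equal reads on each strand. Just inside were SNN1, at 50% in its lower temperature, SPS100 at 50.3%, LAS21 at 50.5% and SDC25 at 50.5%. Just outside were MPE1 and PRP18, both at 49.9%, and RRG8 and ATR2, both at 49.8%. At the other temperature some were less equal, with 67.0% for MPE1, 64.1% for SPS100 and 58.9% for RRG8. The rest had between 50.9% and 54.9% there. A further 42 frames passed 50% only at 30 °C and 112 only at 39 °C.

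The frames with most other-strand reads included YDR524W-C, cell wall genes near chromosome ends and frames of the ribosomal DNA region. HPF1, which encodes a cell wall mannoprotein (chromosome XV, 28703 to 31606, build R64), had 9272 other-strand and 521 own-strand reads at 30 °C, and 2888 and 213 at 39 °C. CSS1, a related gene on chromosome IX (23119 to 26106), had 5039 other-strand and 206 own-strand reads at 30 °C, and 1271 and 77 at 39 °C. HPF1 and CSS1 share similar sequence, so the division of reads between them is uncertain. In both genes the antisense reads outnumbered the sense reads many times over at each temperature, and they were lower at 39 °C. The other-strand log2 ratio of 39 °C over 30 °C, taken on CPM after adding 0.5 to each count, was -0.94 (-1.0 to -0.88) for HPF1 and -1.24 (-1.33 to -1.15) for CSS1.

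YDR524W-C, a 90-base frame on chromosome IV (1489403 to 1489492), had 8956 other-strand and 349 own-strand reads at 30 °C, and 3986 and 179 at 39 °C. The first feature on its 3′ side is YDR524C-B on the opposite strand, 105 bases away, with 3565 own-strand reads at 30 °C and 1615 at 39 °C. The pair moved by almost the same amount, with log2 ratios of -0.42 (-0.48 to -0.37) for the antisense reads of YDR524W-C and -0.40 (-0.48 to -0.31) for the sense reads of YDR524C-B. Both frames are small and close together, and where the transcripts end was not measured.

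YLR162W had 3657 other-strand reads at 30 °C and 2706 at 39 °C, and RRT15 had 2468 and 2093. They are adjacent on chromosome XII (489573 to 489929 and 490406 to 490594), beside the ribosomal DNA repeats, whose copies cannot be separated by short reads, so their counts are uncertain. YLR154W-E and YLR154W-F, which have no RefSeq entry, had 3699 and 3938 other-strand reads at 30 °C and 3363 and 2330 at 39 °C. Another 4 of the chosen frames, YLR154C-H, YLR156C-A, YLR157C-C and YLR159C-A, overlap genes for 5S ribosomal RNA on the opposite strand. The remaining frame without an entry among the 12 with most antisense reads was YKL153W, with 2797 at 30 °C and 1434 at 39 °C.

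Single-copy genes of known function were among the most heavily read. SCY1, a kinase-like protein of vesicle traffic, had 2991 other-strand and 366 own-strand reads at 30 °C, and 2792 and 321 at 39 °C. SIP4, an activator of gluconeogenic genes, had 3344 and 427 at 30 °C, and 2368 and 376 at 39 °C. SPO77, needed for spore wall formation, had 3104 and 152 at 30 °C, and 1731 and 103 at 39 °C. Adjusted for depth, antisense reads were higher at 39 °C over SCY1 (log2 ratio 0.65, 0.57 to 0.72) and slightly higher over SIP4 (0.25, 0.17 to 0.32), while SPO77 stood near no change (-0.10, -0.18 to -0.01).

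Antisense reads over the chosen frames were as a group a little higher at 39 °C, less so than those of reading frames in general. The other-strand log2 ratio had a median of 0.22 over the 609 frames, with quartiles of -0.22 and 0.59. Over all 6140 measured frames the median other-strand ratio was 0.38, and the median own-strand ratio was -0.03. By these medians, other-strand reads stood higher relative to own-strand reads at 39 °C. The glycolysis genes moved the same way, with median other-strand shares of 3.15% at 30 °C and 3.97% at 39 °C. What caused this was not tested. At least 2-fold higher antisense levels were found in 69 frames (11.3%), where 10.6% of all measured frames passed on the same rule. At least 2-fold lower levels were found in 12 (1.97%), against 0.831% of all measured frames. The share of 2-fold higher frames is thus close to the background, and the other 528 frames stayed within 2-fold. All 69 intervals lay above 0 and all 12 lay below it. The read minimum and the 2-fold limit make that nearly certain, so it adds no support.

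The ratio differed between annotated genes and frames without a RefSeq entry. Among the 359 with an entry the median other-strand ratio was 0.41, with 57 at least 2-fold higher (15.9%) and 5 lower (1.39%). Among the 250 without an entry it was -0.09, with 12 higher (4.8%) and 7 lower (2.8%). The 4360 other frames with at least 100 other-strand reads had a median of 0.41, close to that of the annotated genes. Of those other frames 10.3% were at least 2-fold higher and 0.436% lower.

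**Figure D2:**
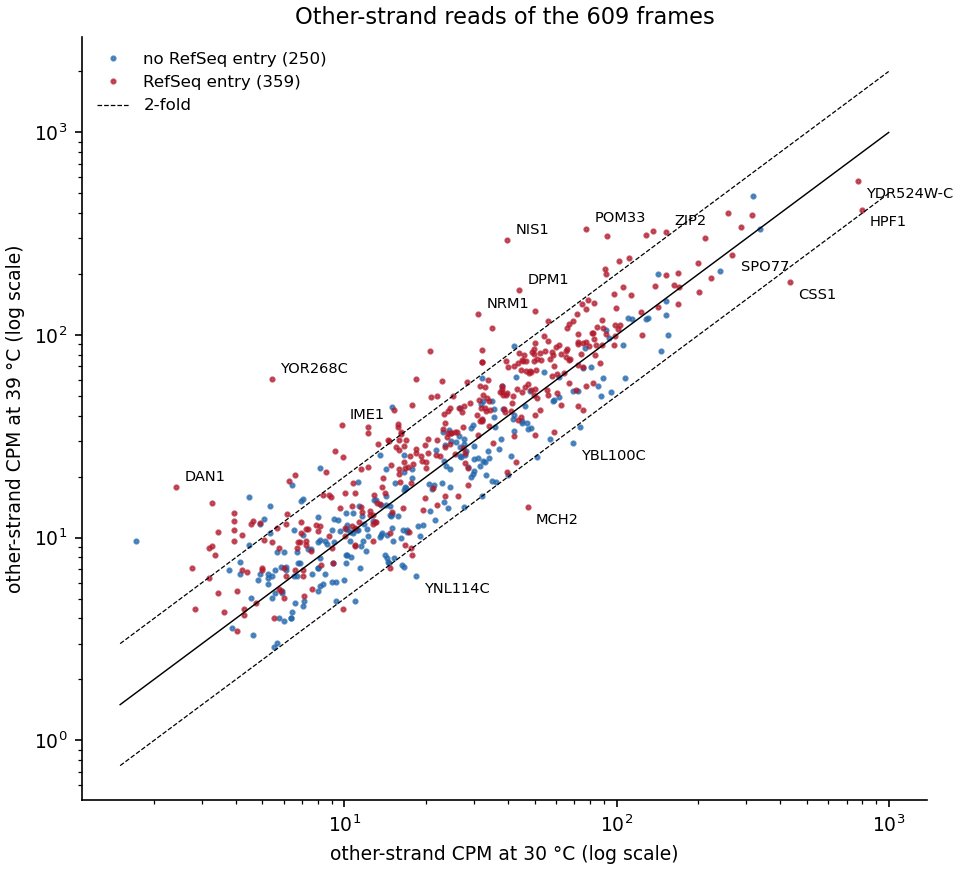
Other-strand CPM of the 609 frames at 30 °C (x axis) and 39 °C (y axis), both on log scales, with frames that have a RefSeq entry in red and those without in blue. The solid line marks equal levels and the dashed lines 2-fold. Among the labelled frames, YOR268C, NIS1 and DAN1 stand farthest above, while MCH2, YNL114C and CSS1 lie below.

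Own-strand reads could be compared for the 239 chosen frames with at least 100 of them. Their own-strand ratio had a median of 0.29, and the other-strand ratio of the same frames a median of 0.38. On the own strand 26 frames were at least 2-fold higher and 5 lower. On that rule 3.13% of all measured frames were higher and 2.55% lower. Of the 69 frames with 2-fold higher antisense reads, 45 had own-strand ratios below 1 and 16 had ratios below 0, so in most of them the sense reads did not reach 2-fold.

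NIS1 showed the clearest strand-specific change. NIS1, which encodes a bud neck protein (chromosome XIV, 479768 to 480991), had 461 antisense and 328 sense reads at 30 °C, and 2051 and 180 at 39 °C. In CPM, its antisense level was 39.5 at 30 °C and 295.1 at 39 °C, while its sense level was 28.1 and 25.9. The antisense log2 ratio was 2.90 (2.75 to 3.05), and the sense ratio of -0.12 (-0.39 to 0.15) could not be told from no change. The antisense share was 58.4% (54.9 to 61.9) at 30 °C and 91.9% (90.7 to 93.0) after heat. The next gene on the 3′ side of NIS1, on the same strand and 399 bases away, is APJ1, which encodes an Hsp40-type chaperone. APJ1 own-strand reads were also higher at 39 °C, with 142.7 CPM against 360.3 and a log2 ratio of 1.34.

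POM33, a membrane protein of the nuclear pore (chromosome XII, 97997 to 98836), had 901 antisense and 288 sense reads at 30 °C, and 2329 and 238 at 39 °C. Its antisense log2 ratio was 2.12 (2.00 to 2.23), against a sense ratio of 0.47 (0.22 to 0.72). It too lies upstream of a chaperone gene on the same strand, SSA2, which encodes a cytosolic Hsp70, at a distance of 511 bases. SSA2 stood at 1198.2 CPM at 30 °C and 2035.0 at 39 °C, a log2 ratio of 0.76.

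NRM1, DPM1 and UPA1 had higher antisense reads without higher sense reads. NRM1 encodes a repressor of genes of the start of the cell cycle (chromosome XIV, 642690 to 643439), and it had 361 antisense and 221 sense reads at 30 °C, and 881 and 80 at 39 °C. Its antisense ratio of 2.03 (1.85 to 2.21) stood against a sense ratio of -0.71 (-1.11 to -0.34), so the strands moved in opposite directions. DPM1, the enzyme that makes dolichol phosphate mannose for glycosylation (chromosome XVI, 900755 to 901558), had 510 antisense and 288 sense reads at 30 °C, and 1163 and 129 at 39 °C. Its antisense ratio was 1.93 (1.78 to 2.09) and its sense ratio -0.41 (-0.72 to -0.11). UPA1 (chromosome VII, 1059015 to 1060040) had 1075 and 758 reads at 30 °C, and 2132 and 444 at 39 °C, with an antisense ratio of 1.73 (1.63 to 1.84) and a sense ratio of -0.02 (-0.20 to 0.15).

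None of the genes on the 3′ side of these 3 frames was 2-fold higher on its own strand. CSE2, a subunit of the Mediator complex downstream of NRM1, had an own-strand ratio of 0.44, and BGL2, a cell wall glucanase downstream of UPA1, had 0.14. GDB1, the glycogen debranching enzyme downstream of DPM1, was lower at 39 °C, with 159.2 CPM at 30 °C, 65.2 at 39 °C and a ratio of -1.29. The sense reads of GDB1 and the antisense reads of DPM1 thus moved in opposite directions.

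**Figure D3:**
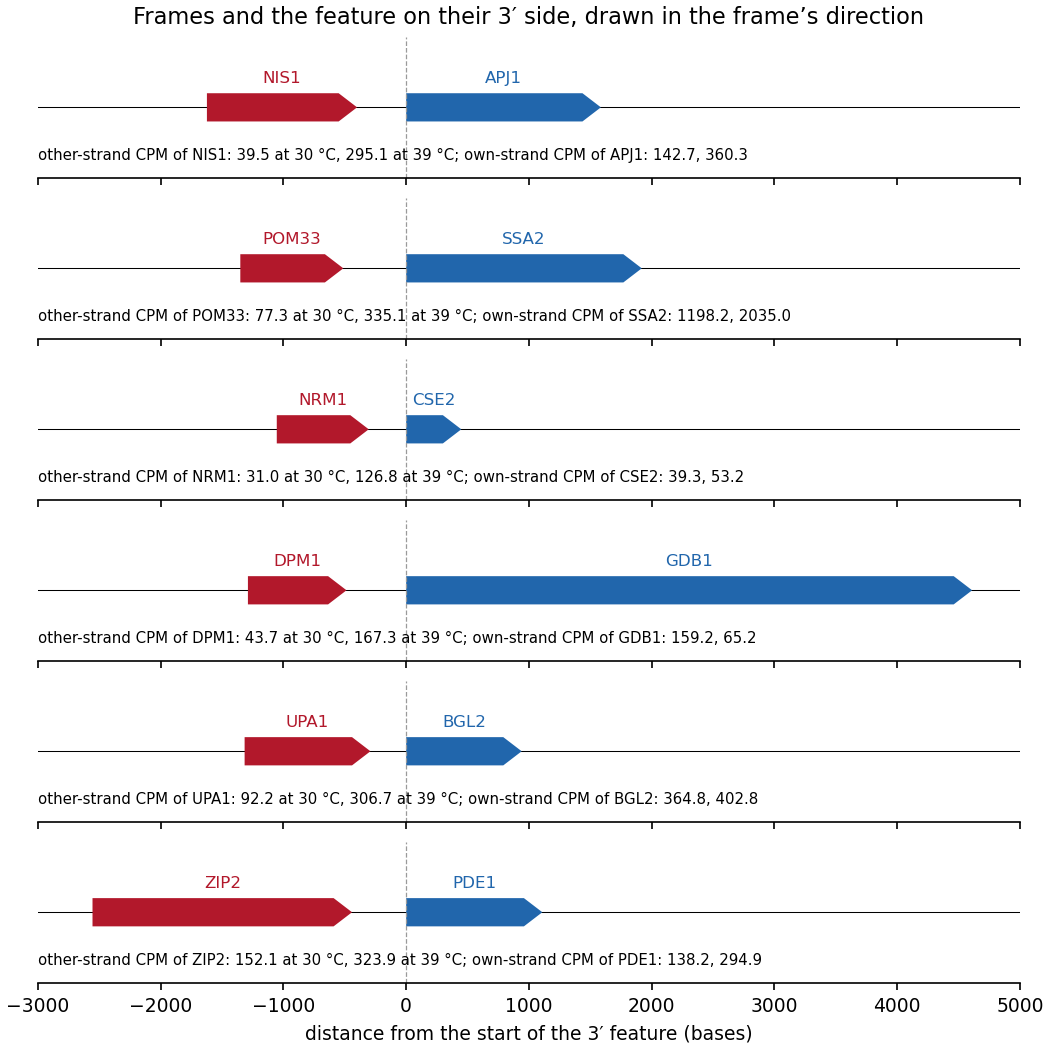
Positions of 6 chosen frames (red) and of the gene on their 3′ side (blue), drawn to scale in the direction of the frame, with the x axis in bases from the start of the 3′ gene. The text in each row gives the other-strand CPM of the frame and the own-strand CPM of its neighbour at 30 °C and 39 °C, and all 6 antisense levels were higher at 39 °C while GDB1 was lower.

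These frames come from a ranking by the lower bound of the ratio, among frames with at least 100 antisense reads, so some frames with a higher ratio on fewer reads are not named. The others of the 10 highest in that ranking were thinly read at 30 °C. YOR268C, a frame with no role given here, had 63 antisense reads at 30 °C and 422 at 39 °C, with a ratio of 3.48 (3.11 to 3.90). DAN1, a cell wall mannoprotein made without oxygen, had 28 and 124, with a ratio of 2.87 (2.29 to 3.54). IME1, the master regulator of entry into meiosis, had 114 and 250, with a ratio of 1.88 (1.55 to 2.21). For IME1 sense reads were higher too, 53 at 30 °C and 72 at 39 °C, a ratio of 1.18 (0.66 to 1.73), so at this gene both strands moved the same way. The remaining frames of the 10 were YPR078C, with a ratio of 2.01, and YOR381W-A, with 2.17. The first feature on the 3′ side lay on the same strand for 9 of these 10 frames, with DAN1 as the exception. Over all 57 positioned frames with 2-fold higher antisense reads it did so for 41 (71.9%), close to the 70.2% of all chosen genes.

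Ranked the same way from the other end, by the upper bound of the ratio, 7 of the 10 lowest frames had no RefSeq entry. MCH2, which resembles monocarboxylate transporters (chromosome XI, 6107 to 7528), had the lowest ratio, with 549 antisense reads at 30 °C and 98 at 39 °C. Its sense reads numbered 79 and 83, so the antisense ratio of -1.73 (-2.07 to -1.43) stood against a sense ratio of 0.82 (0.36 to 1.28). The antisense share of MCH2 was 87.4% (84.6 to 89.9) before heat and 54.1% (46.6 to 61.6) after it. The others in RefSeq were CSS1 and HPF1. Without an entry were YNL114C at -1.49, YBL100C at -1.24, YNL103W-A at -1.19, YBR134W at -1.14, YJR023C at -1.05, YBL077W at -1.03 and YLR339C at -0.96.

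Regulators of transcription and chromatin were also found among the chosen frames, named here after their values were seen. HSF1, the activator of heat shock genes (chromosome VII, 368753 to 371254), had 1229 antisense and 929 sense reads at 30 °C, and 1200 and 769 at 39 °C. Antisense and sense ratios of HSF1 were 0.71 (0.60 to 0.83) and 0.47 (0.33 to 0.61), and its antisense share was 57.0% and 60.9%. HHO1, the linker histone, had 375 antisense and 285 sense reads at 30 °C, and 514 and 112 at 39 °C. Its antisense reads were at least 2-fold higher and its sense reads lower, with ratios of 1.20 (1.01 to 1.40) and -0.60 (-0.93 to -0.28). RIF2, a telomere protein, had 2345 antisense and 989 sense reads at 30 °C, and 1139 and 502 at 39 °C, so that its share hardly moved, from 70.3% to 69.4%.

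Most of the listed genes with an antisense RNA already described in budding yeast were among the chosen frames. Of 11 such genes measured, 7 were chosen (63.6%), beside 9.92% of all measured frames and 6.21% of those with a RefSeq entry. The list was drawn up with results of these data known, so the count is a description. IME4, a methyltransferase of mRNA needed for meiosis, had 559 antisense and 46 sense reads at 30 °C, and 461 and 62 at 39 °C. ZIP2, which starts synapsis of meiotic chromosomes, had 1773 and 218 at 30 °C, and 2251 and 414 at 39 °C. The antisense ratio of ZIP2 was 1.09 (1.00 to 1.18) and its sense ratio 1.67 (1.43 to 1.91), so both strands were higher and the antisense share was lower, 89.1% and then 84.5%. PDE1, a cyclic AMP phosphodiesterase 440 bases to its 3′ side, had an own-strand ratio of 1.09.

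Phosphate genes were represented by PHO84 and PHO5. PHO84, the high-affinity phosphate transporter, had 455 antisense and 220 sense reads at 30 °C, and 290 and 280 at 39 °C, close to equal on the strands after heat. Its antisense ratio was 0.10 (-0.12 to 0.31), not distinguishable from no change, while its sense ratio was 1.09. PHO5, a secreted acid phosphatase, had 1449 antisense and 357 sense reads at 30 °C, and 694 and 187 at 39 °C, with an antisense ratio of -0.32 (-0.45 to -0.18). HMS2 and MBR1 moved the other way, with antisense ratios of 0.90 (0.72 to 1.07) and 0.87 (0.71 to 1.03). The list also held GAL10, described with the galactose genes. Its other 4 genes, KCS1, SUR7, GAL80 and CDC28, had antisense shares between 3.79% and 18.9%.

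RefSeq annotates 7 antisense RNAs in this genome, none of them counted as a feature in the files. Of these, 6 overlap a chosen frame, and 7 of the 10 reading frames they overlap on the opposite strand were chosen. Those are GAL10, ZIP2 under RME3, IME4 under RME2, SPS100 under SUT169, YML122C and PHO84 under YNCM0001W, and GAL4 under YNCP0002W. GAL4, the activator of the galactose genes (chromosome XVI, 79711 to 82356), had 1966 antisense and 137 sense reads at 30 °C, and 1413 and 170 at 39 °C. The annotated RNA (79562 to 82648) covers all of the GAL4 frame. Of the frames not chosen, TAT1, an amino acid permease, has 98.1% of its length under TBRT and had an antisense share of 22.9% at 30 °C and 25.3% at 39 °C. TUB3 and YPL247C are overlapped over only 7.33% and 1.53% of their length.

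Of 75 measured meiosis and sporulation genes, 28 were chosen (37.3%), beside 9.92% of all measured frames and 6.21% of those with a RefSeq entry. By role, 4 of 6 regulators were chosen, 10 of 29 genes of recombination and chromosome segregation, and 14 of 38 genes of the spore membrane and wall. Neither MIP6 nor its relative PES4 was chosen, with antisense shares of 29.0% and 42.4% at 30 °C and 20.2% and 33.8% at 39 °C. The antisense ratio of the 28 genes had a median of 0.60, with 6 at least 2-fold higher and none lower. On the same rule 10.6% of all measured frames were higher and 0.831% lower, and 15.9% and 1.39% of the chosen frames in RefSeq. Over all 75 measured genes the sense ratio had a median of 0.64, with 23 at least 2-fold higher and 3 lower. In sense, 4.48% of all frames with at least 100 reads on both strands together were higher and 2.67% lower.

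Among the regulators, IME1 and IME4 are given above. IME2 and RIM4 were not chosen, with antisense shares of 20.4% and 47.5% at 30 °C and 22.5% and 70.1% at 39 °C. NDT80, the activator of the middle genes of meiosis, had 520 antisense and 208 sense reads at 30 °C, and 468 and 183 at 39 °C. MER1, which activates splicing of meiotic mRNAs, had 841 antisense and 28 sense reads at 30 °C, and 492 and 26 at 39 °C. The MER1 strands stayed very unequal, with an antisense ratio of -0.03 (-0.19 to 0.13), and NDT80 had 0.59 (0.41 to 0.78).

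The chosen genes of the meiotic double-strand break, SPO11, REC102 and REC114, had between 88.8% and 96.0% of their reads in antisense. Other genes of the break were not chosen. Antisense shares at 30 °C and 39 °C were 7.17% and 9.05% for REC104, 20.4% and 31.5% for REC107, and 37.2% and 34.1% for MEI4. SPO11, the enzyme that cuts the DNA, had 651 antisense and 73 sense reads at 30 °C, and 649 and 82 at 39 °C. REC102 had 1314 and 89 at 30 °C, and 1098 and 46 at 39 °C, and REC114 had 960 and 89, and then 1000 and 107. Their antisense ratios were 0.74, 0.49 and 0.80. RED1, a protein of the meiotic chromosome axis, differed in having 575 sense beside 655 antisense reads at 30 °C, and 275 beside 815 at 39 °C, with ratios of 1.06 (0.91 to 1.21) on the antisense strand and -0.32 on the sense strand. HOP1 and MEK1 had antisense ratios of 0.62 and 0.42, SPO13 had -0.11, PCH2 0.05 and HFM1 0.62.

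Of the spore genes, SMA2 at 1.43 (1.13 to 1.75), DIT2 at 1.38 (0.87 to 1.90) and LOH1 at 1.28 (0.73 to 1.86) passed 2-fold in antisense, all on fewer than 250 antisense reads at either temperature. MUM3 had 835 antisense reads at 30 °C and 887 at 39 °C, and OSW2 had 533 and 557, with ratios of 0.83 and 0.81. SPO75 had the lowest ratio of the group, with 728 and 313 antisense reads and a ratio of -0.47 (-0.67 to -0.28), while its sense reads numbered 72 and 119. SPS2 and LDS2 had ratios of 0.75 and 0.64, SPS100 0.35, SPR3 0.27, RRT12 -0.14, GAS4 -0.15 and GAS2 -0.33.

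A list of glucose-repressed genes and genes for alternative nutrients supplied 18 of 45 measured (40.0%), beside 9.92% of all measured frames. With a RefSeq entry, 6.21% of measured frames were chosen. Antisense reads were 2-fold higher in 3 of the 18 and lower in none, where 10.6% and 0.831% of all measured frames passed. Over all 45 measured genes the sense ratio had a median of 0.43, with 5 at least 2-fold higher and 2 lower. In the galactose cluster, GAL1, the galactokinase (chromosome II, 279021 to 280607), had 558 antisense and 96 sense reads at 30 °C, and 452 and 22 at 39 °C. The GAL1 antisense ratio was 0.44 (0.26 to 0.62) and the sense ratio -1.35 (-2.12 to -0.70), which took the antisense share from 85.3% to 95.4%. The annotated RNA antisense to GAL10 (276805 to 280645) also covers the GAL1 frame, on GAL1's own strand. The sense reads of GAL1 therefore cannot be assigned to its mRNA alone. GAL10, the epimerase, had 338 antisense and 232 sense reads at 30 °C, and 321 and 166 at 39 °C. The GAL2 permease had 92 and 66, and then 80 and 57. GAL7, beside GAL10 in the cluster, was not chosen, with antisense shares of 6.70% at 30 °C and 8.72% at 39 °C.

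Enzymes of gluconeogenesis and the glyoxylate cycle, which glucose represses, differed in how one-sided they were. FBP1, fructose-1,6-bisphosphatase, had 369 antisense and 32 sense reads at 30 °C, and 303 and 20 at 39 °C. MLS1, malate synthase, had 566 and 62, and then 459 and 78. ICL1, of the glyoxylate cycle, was not chosen, with antisense shares of 44.0% at 30 °C and 72.0% at 39 °C. PCK1, phosphoenolpyruvate carboxykinase, was nearly balanced, with 183 and 170 reads at 30 °C and 253 and 228 at 39 °C, and both strands were at least 2-fold higher at 39 °C, by log2 ratios of 1.21 and 1.17.

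Of 11 hexose transporter genes measured on the list, 6 were chosen, HXT9, HXT11, HXT13, HXT15, HXT16 and HXT17, on between 30 and 156 antisense reads per temperature. The 5 not chosen, HXT2, HXT4, HXT5, HXT8 and HXT10, had antisense shares between 7.70% and 34.9%. Several of these transporters are nearly identical in sequence, so the reads of each are uncertain. HXT9 had the highest ratio of them, 1.30 (0.93 to 1.68), and HXT15 the lowest, 0.09 (-0.48 to 0.65). Of the others, MAL32, a maltase, had an antisense ratio of 0.27, PHO89, a phosphate transporter, 0.99, DAL4, an allantoin permease, 1.04, and THI11, of thiamine synthesis, 0.97. None of 22 measured genes for factors that limit or shape antisense RNA was chosen, and their shares had medians of 5.51% and 7.94%.

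**Figure D4:**
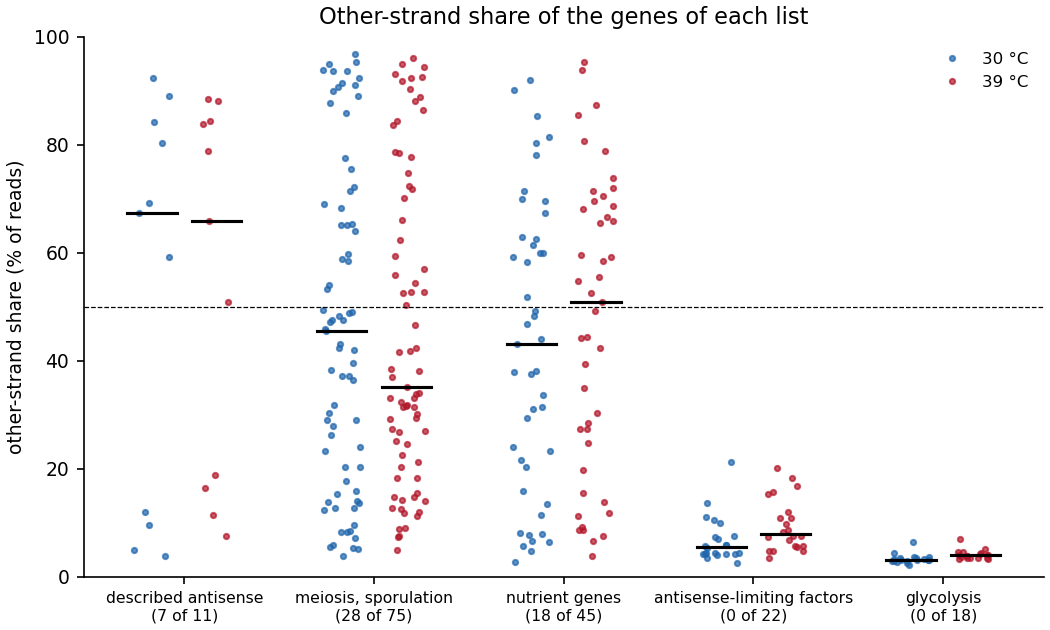
Other-strand share (percent of reads) of every measured gene of 5 lists at 30 °C (blue) and 39 °C (red), 1 point for each gene, with the median as a black bar and a dashed line at 50%. Labels give the number chosen of the number measured, and glycolysis genes stay at or below 6.98% while meiosis and nutrient genes spread up to 96.8%.

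Chosen genes were placed differently from other genes with respect to the feature on their 3′ side. The orientation on the 3′ side was examined after values were seen, and no test was made of it. The first RefSeq feature on the 3′ side lay on the same strand for 252 of 359 chosen genes (70.2%) and for 2495 of 5423 other genes (46.0%). It lay on the opposite strand, facing the gene, for 106 (29.5%) and 2911 (53.7%). On the 5′ side the same strand was found for 48.2% and 48.7%. A same-strand feature on the 3′ side lay at a median distance of 456.5 bases for the chosen genes and 390 bases for the other genes. Where the antisense transcripts start was not measured.

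An opposite-strand feature overlapped 36 of the chosen genes (10.0%) and 55 of the others (1.01%). The overlapped genes were short, with a median of 373.5 bases, and had median antisense shares of 92.7% at 30 °C and 86.5% at 39 °C. A protein-coding gene was the partner of 25 of them. YDR209C, for example, had 1979 antisense and 80 sense reads at 30 °C, and 1198 and 52 at 39 °C, and it overlaps CPP2 on the other strand. AUA1, over WWM1, had 904 and 69 at 30 °C, and 388 and 59 at 39 °C, and both were named after their values were seen. Reads that fall where features overlap may be dropped as ambiguous in counting, and ambiguous reads were between 3.92% and 13.3% of the reads of a file.

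Counting overlaps and distances up to 500 bases together, an opposite-strand feature was near 153 of the chosen genes (42.6%) and 3321 of the others (61.2%). Within 20 kb of the outermost annotated gene of a chromosome arm lay 35 of the chosen genes (9.75%) and 176 of the others (3.25%). Another chosen frame was the direct neighbour of 58 of them (16.2%), and of 535 of the others (9.87%).

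**Figure D5:**
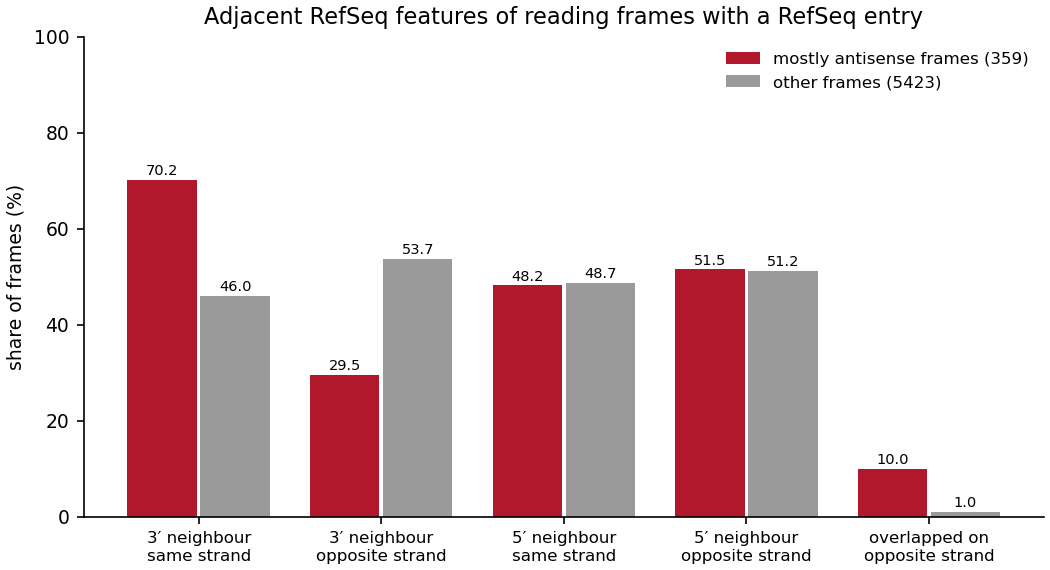
Percentage of 359 chosen genes (red) and 5423 other measured genes (grey) with a RefSeq entry, on the y axis, by the strand of the first feature on the 3′ and on the 5′ side and by overlap on the opposite strand. A same-strand feature lay on the 3′ side of 70.2% against 46.0%, and on the 5′ side of 48.2% against 48.7%.

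The antisense ratio of a chosen gene was only loosely tied to the change in its neighbour. Over 209 chosen genes with a same-strand neighbour on the 3′ side and enough reads in both, the other-strand ratio and the neighbour's own-strand ratio had a Spearman correlation of 0.27 and a Pearson correlation of 0.24. Over 1894 other genes the values were 0.20 and 0.25. These are correlations across genes of the same pair of libraries, and genes are not independent replicates. In the 209 pairs, 34 chosen genes had 2-fold higher antisense reads, and 26 of their neighbours (76.5%) had ratios above 0, against 128 of the neighbours in all 209 pairs (61.2%), a difference that was not tested. Of the 12 neighbours that were themselves 2-fold higher, 2 had a chosen gene that was too, APJ1 beside NIS1 and PDE1 beside ZIP2. For these pairs the antisense level per kilobase had a median of 47.7 CPM, as the mean of both temperatures, against 79.7 for the sense reads of the neighbour.

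The authors' deposited table of their own comparison called few of these frames changed. With its sign turned to 39 °C over 30 °C, it called 2 of the 609 up, YIR018C-A and YOL050C, and 2 down, YLR285C-A and CIN2, where 3.19% and 5.49% of all measured frames were called. All 69 frames with 2-fold higher and all 12 with 2-fold lower antisense reads are flat in the authors' deposited table. For 121 frames with at least 100 reads on each strand and ratios at least 0.5 apart, the authors' deposited table gave a log2 ratio nearer the own-strand ratio in 118 and nearer the other-strand ratio in 3. For NIS1 the authors' deposited table gives -0.58 and for POM33 -0.11. The antisense changes described here therefore do not appear among that table's calls.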

How the data were processed

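Each of the 4 deposited files gives raw counts, 1 whole number of reads for a feature, for 1 strand and temperature. The submitters' processing notes name Bowtie 1.1.1, HTSeq and the builds sacCer3 and R64. Not given in the sources used here are the strand setting of the counting, the mismatch filter and any removal of duplicates. The 5 summary rows of each file were left out. The authors' deposited table supplied a log2 ratio, a probability, which is a score and not a p-value, a call and the feature length. Its log2 ratio runs as 30 °C over 39 °C, judged from its calls and its values against the counts, and was turned. Another 2 columns that match no sample were not used.

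CPM used as total the feature reads of a temperature, both strand files together. Ratios are log2 of CPM at 39 °C over 30 °C after adding 0.5 to each count. Shares have 95% Clopper-Pearson intervals and ratios exact conditional binomial intervals, and with 1 library per temperature no test was made. Names and coordinates come from RefSeq (assembly R64) and strand from the systematic name. No genome sequence was used.

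The frames, the lists and the comparisons were chosen with earlier results of these data known. The rule for names took the 12 frames with most antisense reads, the 10 highest and 10 lowest by the interval bound nearest 0 among frames with at least 100 antisense reads, every chosen frame on 5 gene lists, 4 frames on each side of the 50% line, and the nearest opposite-strand features. Others are marked in the text. Size factors of edgeR 4.0.16 and DESeq2 1.42.0 were alternatives to the totals. The calculation was tested on simulated counts, with Python 3.11.15, pandas 2.3.3 and scipy 1.17.1. Values of 1 frame are not reported here.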

Additional observations from a re-analysis of the deposited data

How the results depend on the processing

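No paired analysis was possible because there is 1 library per temperature. With size factors from DESeq2, TMM factors from edgeR, the total of the strand file alone, 5 added to each count or the 30 °C library thinned to the depth of the other, between 69 and 73 frames were 2-fold higher and between 10 and 14 lower, the median ratio was between 0.20 and 0.23, and all 26 named 2-fold calls stayed past 2-fold. The number of frames moved with the rule, to 323 with at least 500 reads and 389 with a share of at least 75%. It was 553 where the lower bound of the share had to reach 50% and 610 after scaling each strand file. The 2-fold higher frames numbered 34 with at least 500 reads, 31 at 75%, 35 on W names, 34 on C names and 12 without a RefSeq entry. The 2-fold lower frames numbered 29 with at least 20 reads, 5 with at least 500, 5 on W names and 7 on C names. They numbered 5 in RefSeq, 2 in RefSeq where no feature overlaps, and 7 without an entry. The median ratio was 0.28 with at least 500 reads and 0.083 at 75%. It was 0.41 in RefSeq, 0.42 in RefSeq without overlaps, and -0.091, of opposite sign, without an entry. Overlaps were known only for frames in RefSeq, so the setting without overlaps leaves out all frames without an entry. Splitting by RefSeq entry was chosen after seeing the data. An opposite-strand feature lay within 200 bases of 91 genes. Many of these moves follow from fewer frames being counted, and the cause of the others was not tested. Depth limits the thinly read frames most, such as DAN1 and the hexose transporters.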
